A study of Saccharomyces cerevisiae with 8 samples.

Results

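The genes described here encode the machinery that copies chromosomal DNA in the budding yeast Saccharomyces cerevisiae. They are 44 genes named by complex: the origin recognition complex (ORC), the MCM helicase and its loaders, the origin firing factors, GINS, the replicative DNA polymerases, the sliding clamp and its loader, the single-strand binding complex RPA, and the enzymes that join Okazaki fragments. Each was found on the arrays by its systematic name and had 1 probe, and all 44 were well above background on all 8 arrays, so all 44 are among the 5816 genes tested. Isopropanol (2-propanol) at 40 g/l was compared with 0 g/l (control), with 4 arrays each. Both groups were the diploid strain BY4743, grown for 3 h in 120 ml of YPD, a rich medium, at 30 °C with shaking at 130 rpm. The dose is taken in g/l, as most labels have it, although 1 label field of the isopropanol samples has mg/l. URA3 and LEU2, which this strain lacks, were above background on 0 arrays. Of 4 mating genes that are low in a diploid, MFA2 was also above background on 0 arrays, whereas MFA1, STE2 and STE3 were above it on all 8, and MFA1 and STE3 were higher with isopropanol (0 of them passed with normexp).

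DNA replication starts at origins that ORC marks throughout the cell cycle. In G1 the loaders Cdc6 and Cdt1 place the ring-shaped MCM helicase on the DNA around each origin, and in S phase kinases, Cdc45, GINS and the firing factors turn it into an active helicase. DNA polymerase alpha with primase then starts new strands, polymerase epsilon extends mainly the leading strand and polymerase delta the lagging strand, while the clamp PCNA holds polymerases on DNA and RPA coats the exposed single strands. Transcripts of many of these genes peak near the transition into S phase, driven by the transcription factor MBF, whereas those of the MCM genes and CDC6 peak earlier, at the end of mitosis and in G1.

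All levels below are log2 signal relative to the 75th percentile of the array, and all changes are differences of such levels, isopropanol minus control. On this scale the median change of all 5816 genes was 0.11. The 75th percentile itself was 1802 to 2449 intensity units on the isopropanol arrays and 1312 to 1678 on the control arrays. Each group filled a slide of its own, so that treatment cannot be told apart from slide. The recorded scan also differed between the groups, and control replicate 3 had a scan entry apart from the other control arrays. The design states that at least 3 independent experiments were made per dose, but no label ties an array to an experiment, and the p-values therefore rest on a spread between arrays that may be technical. An array of a mixed culture also cannot tell fewer cells in a phase from less RNA per cell.

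Isopropanol went with small changes in opposite directions across the replication machinery and with 1 large decrease, that of the clamp gene POL30. Of the 44 genes 14 rose and 17 fell, while 13 did not pass (limma, Benjamini-Hochberg adjusted p under 0.05 over all genes). The median change of the 44 was -0.07. Among all genes tested 77.8% passed, 48.1% higher and 29.7% lower. These are the shares to read the counts of 14 and 17 against, and those of each complex below. Of the 31 that passed, 15 changed by less than 1.2-fold, and only POL30 passed with at least 1.5-fold, where 24.7% of all genes did. The 4 isopropanol arrays lay wholly above the 4 control arrays for 13 of the 44 genes and wholly below them for 16. Of the 5816 genes tested, 2670 lay wholly above and 1594 wholly below, which is 73.3% without overlap in either direction. Arrays agreed closely, with a median SD of 0.08 in the isopropanol group and 0.06 in the control group.

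**Figure D1:**
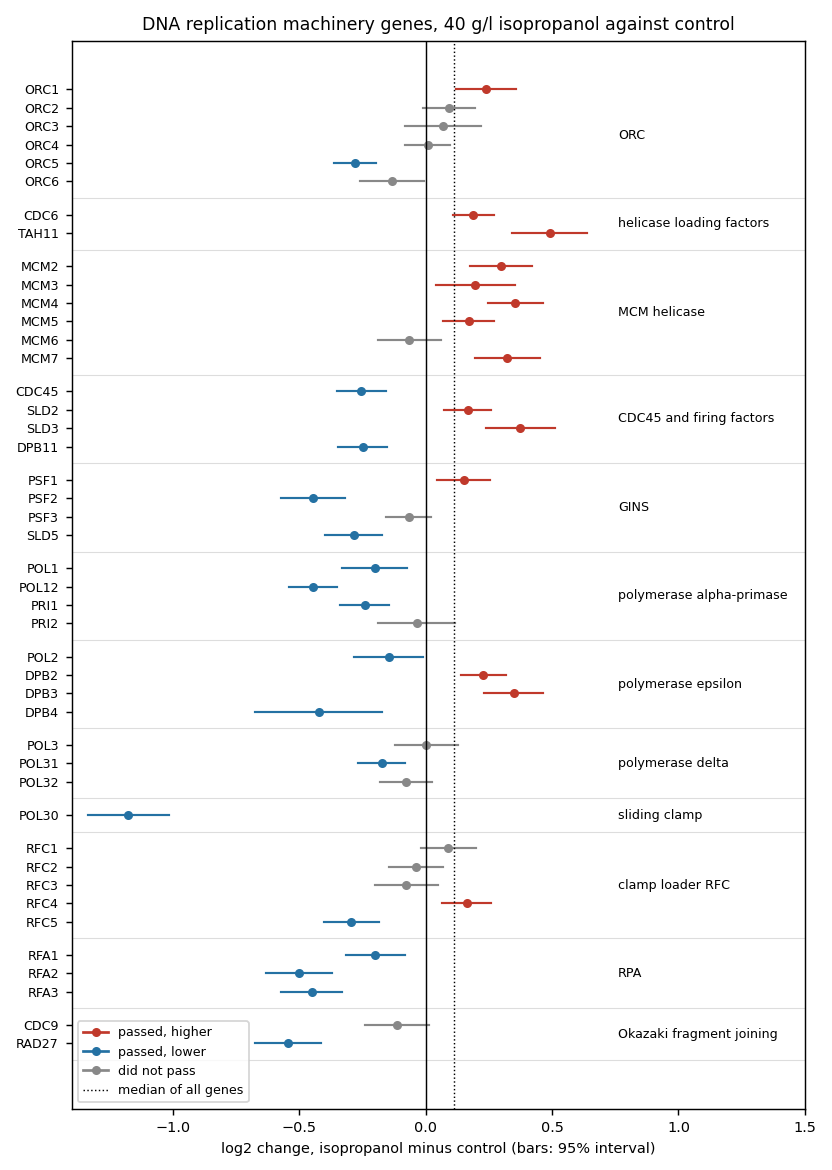
Log2 change (isopropanol minus control, x axis) of each of the 44 replication genes, grouped by complex, with its 95% interval. Red and blue mark genes that passed higher or lower, grey those that did not, and the dotted line is the median of all genes at 0.11. The MCM genes and their loaders lie mostly right of 0, polymerase alpha-primase, RPA and RAD27 left of it, and POL30 lies alone at -1.18.

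POL30 encodes PCNA, the ring that tethers DNA polymerases to the template. Its signal was 0.63, 0.77, 0.75 and 0.60 on the isopropanol arrays, against 1.88, 1.68, 1.88 and 2.01 on the control arrays. The highest isopropanol array, 0.77, lay far below the lowest control array, 1.68. The change was -1.18 (SE 0.07), a 2.26-fold fall with an adjusted p of 1.76e-07, and at most 69 of the 5816 genes had a lower change. It fell in all 19 settings that did not use spike-ins, by 1.03 to 1.33 on the log2 scale. In the RefSeq gene order POL30 lies between RFC5, another replication gene, and NHP6B, which encodes a high-mobility group protein. NHP6B fell by 0.85 on the log2 scale and RFC5 by 0.29.

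The clamp loader RFC opens the PCNA ring and closes it around primed DNA. Its 5 subunit genes changed little: RFC4 rose, RFC5 fell and 3 did not pass, with a median change of -0.04. RFC5 stood at -1.82, -1.79, -1.80 and -1.97 on the isopropanol arrays, against -1.52, -1.58, -1.57 and -1.54 on the control arrays. Its groups did not overlap, and isopropanol replicate 4 was the lowest array. The change was -0.29 (SE 0.05; adjusted p = 0.00027). RFC4 was higher by 0.16 (SE 0.04), which became -0.08 after quantile normalization without passing. RFC1, the large subunit gene, had a change of 0.09 (95% interval -0.02 to 0.20), RFC2 of -0.04 (-0.14 to 0.07) and RFC3 of -0.08 (-0.20 to 0.05). The loader genes thus did not share the large fall of the clamp gene, although RFC5 lies next to it.

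The 3 RPA genes, whose products coat single-stranded DNA as a trimer, all fell, with a median change of -0.45. RFA2, the middle subunit gene, had 0.00, 0.02, 0.09 and 0.14 on the isopropanol arrays, against 0.44, 0.60, 0.54 and 0.68 on the control arrays. The highest isopropanol array lay well below the lowest control array. RFA2 changed by -0.50 (SE 0.06; adjusted p = 2.18e-05), RFA3, the smallest subunit gene, by -0.45 (SE 0.05; 2.68e-05 adjusted) and RFA1, the largest, by -0.20 (SE 0.05; 0.00546 adjusted). The 4 isopropanol arrays lay below all control arrays for each of the 3. RFA1 did not pass with normexp background correction (-0.25, adjusted p = 0.0798), whereas RFA2 and RFA3 did.

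Okazaki fragments, the short pieces of the lagging strand, are trimmed by the flap endonuclease Rad27 and sealed by the DNA ligase Cdc9. RAD27 signal was -1.71, -1.45, -1.47 and -1.55 on the isopropanol arrays, against -1.01, -1.05, -0.98 and -0.95 on the control arrays. The groups were clearly apart, and isopropanol replicate 1 was lowest. RAD27 fell 1.46-fold, the second largest decrease among the 44 genes (-0.54, SE 0.06; adjusted p = 1.11e-05). CDC9 did not pass, with a change of -0.11 (95% interval -0.24 to 0.01).

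**Figure D2:**
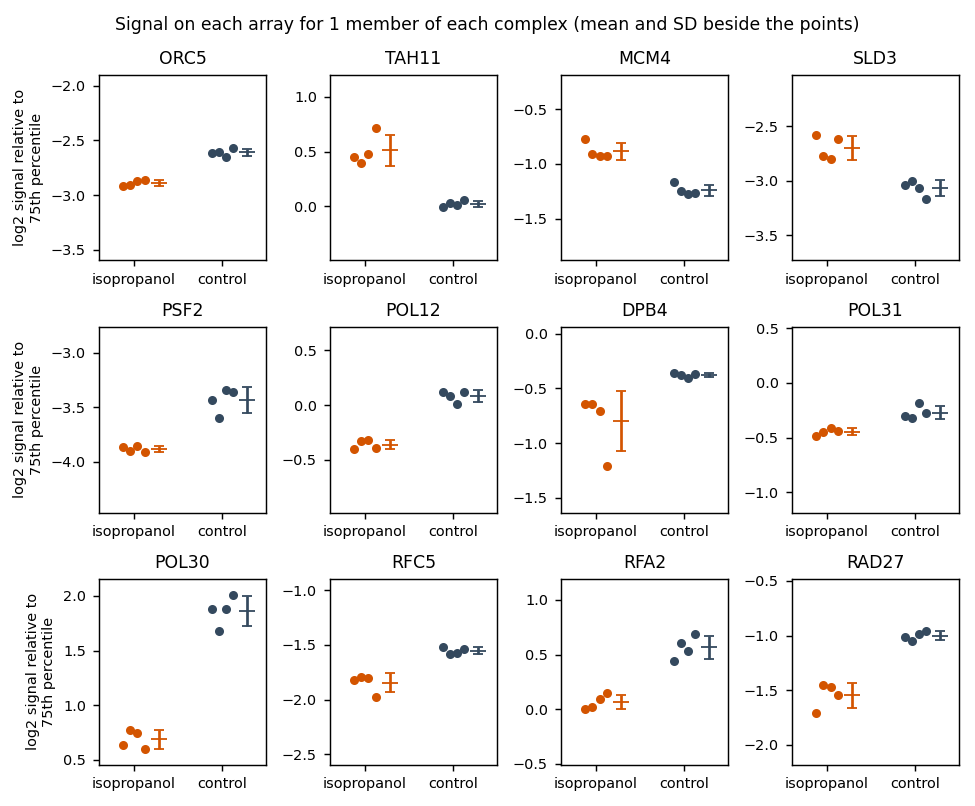
Log2 signal relative to the array's 75th percentile (y axis, each panel spanning the same range) on the 4 isopropanol arrays (left, orange) and the 4 control arrays (right, dark), for 1 gene of each complex, that whose passing change was largest, with mean and SD beside the points. The groups do not overlap in any of the 12 panels, and DPB4 on isopropanol replicate 4 (-1.21) lies apart from its group.

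DNA polymerase alpha-primase lays down the RNA-DNA primers of every new strand. Of its 4 subunit genes 3 fell and 0 rose, with a median change of -0.22, where 29.7% of all genes fell and 48.1% rose. POL12, the B subunit gene, had -0.40, -0.33, -0.32 and -0.39 on the isopropanol arrays, against 0.12, 0.09, 0.01 and 0.12 on the control arrays. All isopropanol arrays lay below all control arrays. Its fall was 1.36-fold (-0.44, SE 0.04; adjusted p = 4.59e-06). PRI1, for the catalytic primase subunit, fell by 0.24 on the log2 scale and POL1, for the catalytic polymerase subunit, by 0.20, a call that POL1 lost with normexp (adjusted p = 0.073). PRI2, for the other primase subunit, had a change of -0.04 (95% interval -0.19 to 0.11).

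Polymerases epsilon and delta, which copy the bulk of the genome, showed no common direction. In polymerase epsilon DPB2 rose by 0.23 (SE 0.04) and DPB3 by 0.35 (SE 0.05), whereas DPB4 and the catalytic subunit gene POL2 fell. Dpb3 and Dpb4 are the paired histone-fold subunits of the enzyme, and their genes moved in opposite directions. DPB4 had -0.65, -0.64, -0.71 and -1.21 on the isopropanol arrays, against -0.36, -0.37, -0.41 and -0.37 on the control arrays. It was lower on every isopropanol array, but replicate 4 alone lay far below the others. The change of -0.42 (SE 0.11; adjusted p = 0.00577) became -0.29 without that array, with an adjusted p of 7.72e-05. The rises of DPB2 and DPB3 were smaller on other scales. After quantile normalization they were 0.06 and 0.09, and neither passed. After median centring they were 0.07 and 0.19, and only DPB3 passed. POL2 passed only narrowly (-0.15, adjusted p = 0.0495), its groups overlapped, and the call ended without isopropanol replicate 1, 2 or 3 or control replicate 1, 2 or 4 (adjusted p up to 0.136).

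Of the 3 polymerase delta genes only POL31 passed. It had -0.48, -0.45, -0.41 and -0.44 on the isopropanol arrays, against -0.31, -0.32, -0.19 and -0.27 on the control arrays. The groups were apart by a small margin, and the change was -0.17 (SE 0.04; adjusted p = 0.00337). POL3, the catalytic subunit gene, had a change of 0.00 (95% interval -0.12 to 0.13) and POL32 of -0.08 (-0.18 to 0.02). Both intervals hold 0.

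The MCM helicase, a ring of 6 related proteins that unwinds DNA, and its loaders held 7 of the 14 rises on the reported scale. Of the 6 MCM genes 5 rose and 0 fell, with a median change of 0.25. The shares of all genes were 48.1% higher and 29.7% lower, with a median change of 0.11. MCM4 had -0.77, -0.91, -0.93 and -0.93 on the isopropanol arrays, against -1.17, -1.25, -1.28 and -1.27 on the control arrays. No isopropanol array was as low as any control array, and isopropanol replicate 1 was the highest. MCM4 changed by 0.36 (SE 0.05; adjusted p = 6.94e-05), MCM7 by 0.32 (SE 0.06), MCM2 by 0.30 (SE 0.05), MCM3 by 0.20 (SE 0.07) and MCM5 by 0.17 (SE 0.05). MCM6 stood apart with -0.06 (95% interval -0.19 to 0.06), although its product belongs to the same ring. The MCM3 groups overlapped, and its call ended without isopropanol replicate 1 or 4 or control replicate 2 or 4 (adjusted p = 0.0522, 0.0518, 0.0614 and 0.070). After quantile normalization MCM2, MCM3 and MCM4 still passed as higher (0.14, 0.24 and 0.23), MCM7 (0.003) and MCM5 (-0.03) did not, and MCM6 passed as lower (-0.29).

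Both helicase loaders rose. TAH11, which encodes yeast Cdt1, the MCM partner in loading, had 0.45, 0.40, 0.48 and 0.72 on the isopropanol arrays, against -0.01, 0.03, 0.01 and 0.05 on the control arrays. Isopropanol replicate 4 was the highest array and the groups were far apart. TAH11 showed the largest increase of the 44 genes, 1.40-fold (0.49, SE 0.07; adjusted p = 5.87e-05), and kept its call in all 19 settings without spike-ins, at 0.33 to 0.55. CDC6, for the ATPase that recruits Cdt1 and MCM to ORC, was higher by 0.19 (SE 0.04), but its change turned to -0.10 after quantile normalization and then passed as lower (adjusted p = 0.0286).

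The 6 ORC genes, whose products mark origins, changed little as a group, with 1 higher, 1 lower, 4 that did not pass and a median change of 0.04. ORC5 had -2.92, -2.90, -2.87 and -2.86 on the isopropanol arrays, against -2.62, -2.60, -2.65 and -2.57 on the control arrays. The arrays of each group were tight and the groups did not overlap, giving a change of -0.28 (SE 0.04; adjusted p = 5.23e-05). ORC1, for the ATPase subunit, rose by 0.24 (SE 0.05), which fell short of the test after quantile normalization (0.08) and with normexp (0.04). ORC6 just missed the threshold (-0.13, adjusted p = 0.0505), and the changes of ORC2, ORC3 and ORC4 lay between 0.01 and 0.09. ORC5 is the neighbour of POL2 in the genome.

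Cdc45 and GINS join MCM to form the active helicase, and Sld2, Sld3 and Dpb11 bring them there. CDC45 fell by 0.25 on the log2 scale (SE 0.04) and so did DPB11 (SE 0.04), the scaffold gene, whereas SLD3 and SLD2 rose. SLD3 had -2.59, -2.78, -2.80 and -2.62 on the isopropanol arrays, against -3.04, -3.00, -3.07 and -3.17 on the control arrays. The groups did not overlap, with a change of 0.37 (SE 0.06; adjusted p = 0.00025), yet after quantile normalization it was 0.05 and with normexp -0.00051, and neither passed. SLD2 was higher by 0.17 (SE 0.04). The falls of CDC45 and DPB11 passed under all 19 settings without spike-ins, and the rises of SLD2 and SLD3 did not.

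In GINS, a complex of 4 small subunits, PSF2 and SLD5 fell, PSF1 rose and PSF3 did not pass (-0.07). PSF2 had -3.86, -3.90, -3.85 and -3.91 on the isopropanol arrays, against -3.43, -3.60, -3.34 and -3.36 on the control arrays. Its isopropanol arrays lay close together below all control arrays, and the change was -0.45 (SE 0.06; adjusted p = 4.38e-05). SLD5 changed by -0.28 (SE 0.05). PSF1 was higher by 0.15 (SE 0.05), which turned to -0.08 after quantile normalization without passing.

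Across these genes changes have to be read against a trend of all genes with signal. With genes split into 10 equal bins by mean signal, the median change was 0.54 in the lowest bin and -0.28 in the highest. Measured against the median of genes of like signal, 32 of the 44 replication genes lay below and 12 above, and their median difference was -0.18. TAH11 lay 0.53 above that median, MCM3 0.24 above, POL30 1.02 below, PSF2 0.87 below and RAD27 0.67 below. PSF2 thus stood further from genes of like signal than its own change of -0.45 shows, whereas CDC6, MCM5, SLD2, PSF1 and RFC4, which passed as higher, lay 0.02 to 0.06 below it.

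**Figure D3:**
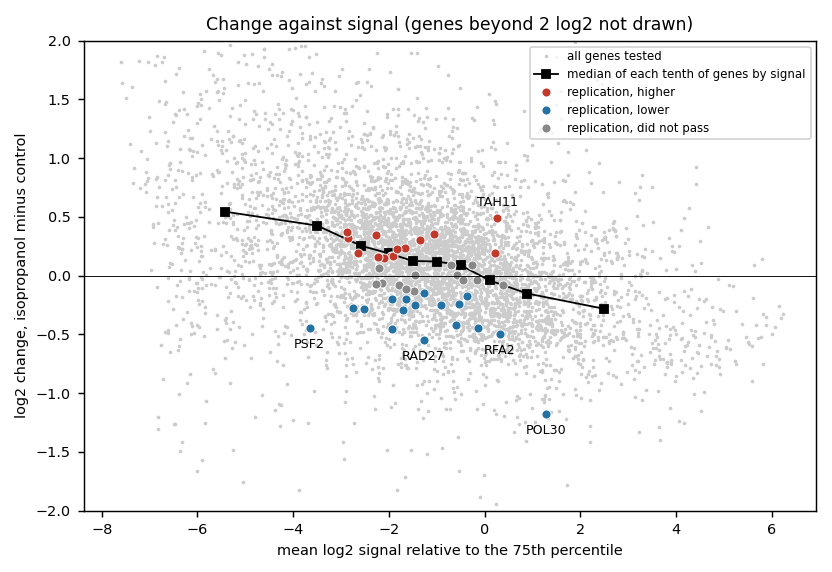
Log2 change (y axis) against mean log2 signal (x axis) for the 5715 genes with a change within 2 log2 units (grey; 101 lie beyond), the median change in 10 equal bins of signal (black), and the 44 replication genes (red higher, blue lower, grey not passed). Medians decline from 0.54 to -0.28 with signal, and most replication genes lie below the black line.

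The scale decided how many genes were called higher. After median centring 6 of the 44 were higher and 27 lower, where 34.7% and 42% of all genes were. After quantile normalization 4 were higher and 25 lower (35.2% and 38.4% of all genes), and with normexp background correction 4 and 15 (18.2% and 24%). The median of the 44 lay 0.18 below that of all genes on the reported scale, after median centring and after quantile normalization, and 0.06 below it with normexp. Under all 19 settings without spike-ins 16 genes passed in the same direction: TAH11, MCM2 and MCM4 as higher, and ORC5, CDC45, DPB11, PSF2, SLD5, POL12, PRI1, POL31, POL30, RFC5, RFA2, RFA3 and RAD27 as lower. The 19 are not independent checks, since they include the reported fit and refits that each leave out 1 array. They also include probe choices that cannot move the change of a gene with 1 probe. The same count over all genes was not made. Relative to 6 spike-in RNA probes, all changes shift upward together by 1.16, or by 0.75 without isopropanol replicate 1, where the spike-ins stood at -2.63 relative to the 75th percentile (-1.10 to -0.88 on the other isopropanol arrays). On that scale POL30 stood at -0.02 (-0.40 without isopropanol replicate 1), and the other 43 genes lay above 0.

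**Figure D4:**
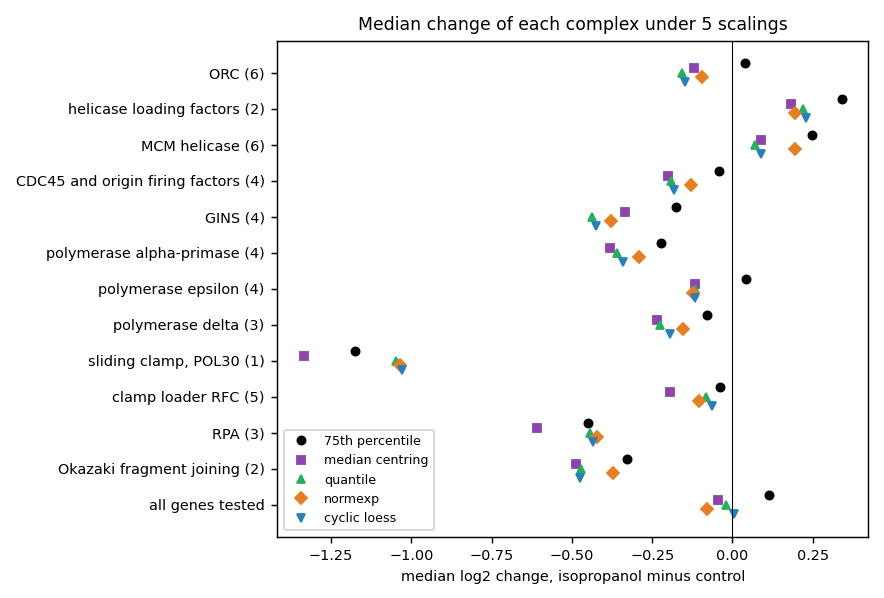
Median log2 change (x axis) of each complex (number of genes in brackets) and of all genes tested under 5 scalings, shown by symbol. RPA (-0.61 to -0.42) and POL30 (-1.33 to -1.03) lie left of 0 under all 5. The medians of the MCM genes (0.07 to 0.25) and of the loaders (0.18 to 0.34) lie right of 0, and ORC and polymerase epsilon change side. Single genes, not drawn, differ from these medians. MCM6 was below 0 under all 5, and CDC6, 1 of the 2 loaders, after quantile normalization (-0.10), normexp (-0.08) and cyclic loess (-0.09).

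Other genes of the replication pathway, 41 in 6 lists, gave 16 higher, 11 lower and 14 that did not pass, with a median change of 0.02. Over all genes 48.1% were higher and 29.7% lower, with a median change of 0.11. Those shares were 34.7% and 42% after median centring, 35.2% and 38.4% after quantile normalization, and 18.2% and 24% with normexp. All 6 genes of other DNA polymerases rose, by 0.21 to 0.63, of which 4 passed after median centring, 3 after quantile normalization and 1 with normexp, none of them as lower. Among these REV7 and REV3, for polymerase zeta, rose by 0.63 (SE 0.05) and 0.50 (SE 0.08), and RAD30, for polymerase eta, by 0.58 (SE 0.06), all of them enzymes that copy past DNA damage. With normexp REV3 (0.01) and RAD30 (0.32) no longer passed. Measured against the median of genes of like signal, the 6 polymerase genes had a median difference of 0.14. They ranged from REV1 (-0.02) to REV7 (0.50). Of the 6 genes of origin kinases and their partners 4 fell and 0 rose: CLB6 and CLB5, the S phase cyclin genes, by 0.50 and 0.38 on the log2 scale, the kinase gene CDC28 by 0.42, and SLD7 by 0.29. After quantile normalization 5 of the 6 passed as lower, and with normexp 4. Of the 12 other fork and checkpoint genes 3 rose and 5 fell (1 and 9 after quantile normalization, 1 and 4 without control replicate 3 and isopropanol replicate 1), with the ribonuclease H2 subunit genes RNH201 (-0.78, SE 0.07) and RNH202 (-0.32, SE 0.04) lower and the topoisomerase gene TOP1 higher (0.47, SE 0.05; 0.22 and not passed with normexp).

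In the alternative clamp loaders 3 of 5 genes rose and 0 fell, with RAD24, for the loader of the checkpoint clamp, at 0.35 (SE 0.06), DCC1 at 0.21 (SE 0.06) and CTF18 at 0.10 (SE 0.04). Only 1 of the 5 passed as higher after median centring, after quantile normalization and with normexp, where DCC1 no longer passed (0.05, -0.04 and 0.09). CTF18 turned to -0.16 after quantile normalization and then passed as lower, and its call on the reported scale ended without any 1 of isopropanol replicates 1, 3 and 4 or control replicates 1 to 4 (adjusted p = 0.0561 to 0.082). Genes of chromatin assembly at forks were split, with 2 of 6 higher and 2 lower: RLF2, for the large subunit of chromatin assembly factor, at 0.32 (SE 0.08), and the histone chaperone gene RTT106 at -0.29 (SE 0.05) and the histone acetyltransferase gene RTT109 at -0.24 (SE 0.04). After median centring, after quantile normalization and with normexp 0 of the 6 passed as higher, and RLF2 stood at 0.16, 0.12 and 0.07. Of the 6 regulators of G1/S transcription 2 rose and 0 fell: MBP1, for the DNA-binding subunit of MBF, by 0.36 (SE 0.04) and STB1 by 0.29 (SE 0.07). SWI6, for the partner of Mbp1, had a change of -0.04 (SE 0.05) and did not pass. After quantile normalization 1 of the 6 regulators passed as higher and 4 as lower, and STB1 (-0.08) did not pass.

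Markers of cell cycle phases changed too, in directions that differed between lists. Over all genes 48.1% were higher and 29.7% lower. The part of these markers in the results for the replication genes was not tested. All 8 core histone genes, which are transcribed in S phase, fell (median change -1.13, and -1.29 to -0.84 under the other scalings without spike-ins), and their summed level relative to the 75th percentile was 47.2 to 52.3 on the isopropanol arrays, against 106 to 115 on the control arrays. Of 7 G2/M genes 6 rose (median 0.63, with 3 passing under normexp), with a summed level of 5.80 to 6.43 on the isopropanol arrays and 3.75 to 3.98 on the control arrays. CLB1, the brightest of the 7, weighed most in these sums (mean level 1.66 with isopropanol and 0.97 in the control). CLB2 did not pass (-0.11, SE 0.06). After median centring, quantile normalization and cyclic loess 1 of the 7 passed as lower. Of 4 G1 cyclin genes 3 rose, and their sums of 2.45 to 2.55 and 2.19 to 2.45 nearly touched. Of these 4, 2 passed as higher and 1 as lower after median centring. With quantile normalization 2 passed as higher and 0 as lower, and with normexp 1 and 0. Of 5 M/G1 genes 3 fell and 2 rose, with summed levels of 8.47 to 8.99 on the isopropanol arrays and 15.3 to 16 on the control arrays. All 6 early meiosis genes rose, to a summed level of 0.521 to 0.552 on the isopropanol arrays, against 0.348 to 0.377 on the control arrays, but with normexp 0 of them passed and their median was -0.39. Measured against genes of like signal their median difference was 0.21, and IME1, IME2 and RED1 lay below the median of such genes. No gene of these 5 marker lists was below background on any array.

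**Figure D5:**
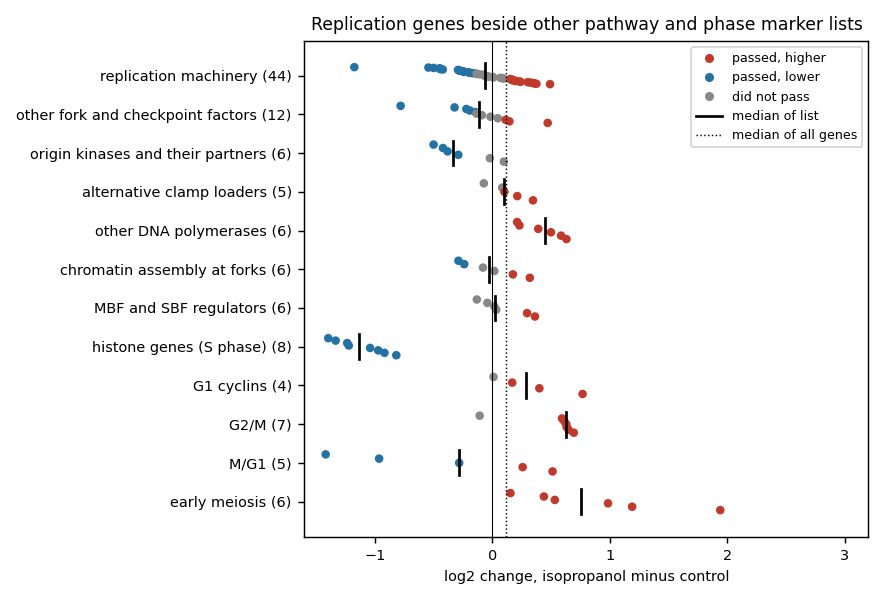
Log2 change (x axis) of each gene of the replication machinery, of 6 lists of other replication pathway genes and of 5 lists of phase or meiosis markers (numbers of genes in brackets). Black bars are list medians and the dotted line is the median of all genes at 0.11. The histone list has the lowest median (-1.13), near POL30, and G2/M genes lie at a median of 0.63. The lowest single gene is CTS1 of the M/G1 list (-1.42).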

How the data were processed

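Per the labels' protocols, RNA for the 8 arrays was made into cRNA carrying Cyanine3 for 1-colour arrays. Scanner files were deposited as Agilent Feature Extraction wrote them (9.5.3.1 per the file headers, version 9 in the submitters' processing notes). Their processed signal, an intensity, is background-subtracted and detrended per the file headers but not scaled between arrays. The deposited series matrix holds log2 values that matched the scanner values relative to each array's 75th percentile (array medians -1.53 to -1.34, rank correlations of 0.997 or more), with no centring of genes, the same direction, and other steps not given in the sources used here.

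The log2 of the processed signal was set relative to the 75th percentile of the 12512 yeast spots of an array. Outlier spots (0 to 21 per array) were dropped, 0 spots were saturated, and the spots of a probe were averaged. A probe was kept if all arrays of either group had it well above background, and the brightest stood for a gene. Of 6256 probes 5765 matched a RefSeq locus tag (assembly R64). The 491 unmatched probes were not dropped for that and stood under their systematic names, so the genes tested include some such names. limma 3.58.1 (R 4.3.3) tested 5816 genes at a Benjamini-Hochberg adjusted p of 0.05. On simulated data for these 5816 genes it found 68% of changes made 1.2-fold, 96% at 1.5-fold and 100% at 2-fold, with 8 false calls. The simulation changed 50 genes at each fold and drew independent noise, with no slide effect or trend with signal. Its rates therefore do not carry over to these data, where 77.8% of genes passed. Array number limits the precision.

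The genes and lists were chosen with earlier results of these data known. Per-array values are given for the passing gene with the largest change in each complex and any gene passing at 1.5-fold, and up to 3 genes per other list are named. SWI6, SLD7 and the neighbours of POL30 were added after their values were seen. A planned description of promoter motifs was not made. Alternatives were median centring, quantile normalization, spike-in scaling, normexp (offset 50), the series matrix, other probe filters, the mean of probes, a replicate block, leaving out each array and, added after seeing the data, cyclic loess and the omission of doubted arrays.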

Additional observations from a re-analysis of the deposited data

Results flagged for a closer look

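Of 122 sets of 4 arrays examined (44 replication genes and 17 named pathway genes, each in both groups), 9 held an array far from the other three by Dixon's criterion, where chance gives about 1 in 20. In the isopropanol group MCM4 stood at -0.77 on replicate 1, against -0.93 to -0.91 on the others, DPB3 at -2.02 on replicate 1 (others -2.13 to -2.11), DPB4 at -1.21 on replicate 4 (others -0.71 to -0.64), RFC5 at -1.97 on replicate 4 (others -1.82 to -1.79) and REV3 at -3.06 on replicate 4 (others -2.70 to -2.69). In the control group MCM6 stood at -2.23 on replicate 2 (others -2.08 to -2.07), PSF1 at -2.31 on replicate 2 (others -2.15 to -2.12), SLD2 at -1.90 on replicate 1 (others -2.02 to -2.01) and RNH201 at -1.39 on replicate 4 (others about -1.34). Leaving out the array in question kept the direction and the call of all 9 genes, of which MCM6 did not pass with or without it. The change of DPB4 became -0.29 and that of REV3 0.59.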

How the results depend on the processing

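The number of replication genes called lower stayed within 1.5 times of 17 in every setting other than median centring (27) and spike-in scaling (0, and 1 without isopropanol replicate 1), and the number called higher, 14, in every setting other than median centring (6), quantile normalization (4), normexp (4), cyclic loess (4, where 37.1% of all genes were higher) and spike-in scaling (34, and 37 without isopropanol replicate 1, where 78.2% and 84.1% of all genes were). Their median of -0.07 became -0.22 after median centring, -0.20 after quantile normalization, -0.14 with normexp, -0.18 with cyclic loess and 1.10 with spike-ins (0.70 without isopropanol replicate 1). For the 41 other pathway genes, 16 higher and 11 lower became 7 and 19 after median centring, 6 and 23 after quantile normalization, 6 and 22 with cyclic loess, 34 and 0 on the spike-in scale and 38 and 0 there once isopropanol replicate 1 was dropped. With normexp 3 were higher. Their median of 0.02 became -0.14 after median centring, -0.16, -0.14 and -0.15 with quantile normalization, normexp and cyclic loess, 1.18 with spike-ins (0.77 without isopropanol replicate 1) and 0.080 without control replicate 3 and isopropanol replicate 1. The cause was not tested. Over all genes 61.8% of calls were higher on the reported scale, against 45.2% after median centring, 47.8% after quantile normalization, 43.2% with normexp and 50.1% with cyclic loess, and normexp called 2456 genes against 4525.

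Among the 44 replication genes and 17 named pathway genes, the following changed sign and passed on the reported scale, the other scale or both, while sign changes that passed on neither are not listed. With median centring these were CTF18 -0.057, ORC4 -0.15, POL3 -0.16 and PSF1 -0.0075. After quantile normalization they were CDC6 -0.10, CTF18 -0.16, DCC1 -0.042, MCM5 -0.027, ORC3 -0.17, ORC4 -0.15, PSF1 -0.077, RFC4 -0.082, SLD2 -0.018 and STB1 -0.083. With cyclic loess they were CDC6 -0.092, CTF18 -0.15, DCC1 -0.027, MCM5 -0.024, ORC4 -0.14, PSF1 -0.062, RFC4 -0.064, SLD2 -0.024 and STB1 -0.047. With normexp they were CDC6 -0.084, CTF18 -0.18, DPB2 -0.0069, MCM7 -0.026, RFC4 -0.015, SLD3 -0.00051 and STB1 -0.19. Of these, only ORC4 and POL3 (median centring), CDC6, CTF18, ORC3 and ORC4 (quantile) and CDC6, CTF18 and ORC4 (cyclic loess) passed as lower. The spike-in scale adds 1.16 to every change by construction. Of the same 61 genes, those below 0 on the reported scale that came out above it there were CDC28 0.74, CDC45 0.91, CDC9 1.05, CLB5 0.78, CLB6 0.66, DPB11 0.91, DPB4 0.74, MCM6 1.10, ORC5 0.88, ORC6 1.03, POL1 0.96, POL12 0.72, POL2 1.01, POL31 0.99, POL32 1.08, PRI1 0.92, PRI2 1.12, PSF2 0.71, PSF3 1.09, RAD27 0.62, RFA1 0.96, RFA2 0.66, RFA3 0.71, RFC2 1.12, RFC3 1.08, RFC5 0.87, RNH201 0.38, RNH202 0.84, RTT106 0.87, RTT109 0.92 and SLD5 0.88. Without isopropanol replicate 1, which lowers that shift to 0.75, they were CDC28 0.32, CDC45 0.51, CDC9 0.63, CLB5 0.38, CLB6 0.23, DPB11 0.49, DPB4 0.28, MCM6 0.71, ORC5 0.48, ORC6 0.65, POL1 0.61, POL12 0.32, POL2 0.65, POL31 0.59, POL32 0.67, PRI1 0.52, PRI2 0.75, PSF2 0.30, PSF3 0.69, RAD27 0.26, RFA1 0.55, RFA2 0.28, RFA3 0.29, RFC2 0.71, RFC3 0.67, RFC5 0.45, RNH202 0.41, RTT106 0.48, RTT109 0.53 and SLD5 0.48.

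The replicate numbers did not pair the arrays: deviations of arrays with the same number correlated at 0.04, -0.16, -0.01 and -0.16 over genes. With the number as a replicate block 14 replication genes were higher and 16 lower, and the call of POL2 ended (limma, adjusted p = 0.0737), as did that of CTF18 (0.088). The series matrix, no filter on dim probes, the filter on all 8 arrays and the mean of probes gave 14 higher and 16 to 18 lower. Leaving out single arrays gave 13 to 14 higher and 16 to 20 lower, with medians of -0.09 to -0.05, and leaving out control replicate 3 with isopropanol replicate 1 gave 13 and 16. All 44 genes were well above background on all 8 arrays.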
